A study of Mus musculus with 12 samples.

Results

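The collagen genes of mouse embryonic fibroblasts (MEFs) were examined in RNA sequencing of wild-type (WT) and RTF2-deficient cells. Members were the genes of the count table whose mouse symbol has the form Col, a number, the letter a and a number, such as Col1a1, and 44 of the 24100 genes in the table met this rule. By the form of assembly they fall into 11 fibrillar genes, 6 basement membrane genes (collagen IV) and 27 other genes. Counts of 39 members were high enough to be tested, and 5 (Col6a5, Col6a6, Col13a1, Col22a1 and Col26a1) were below the filter, with at most 15, 7, 1, 5 and 14 counts in any library.

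WT cells were Rtf2+/+ and RTF2-deficient cells were Rtf2-/lox, so the latter carried 1 allele already lost and 1 flanked by recombination sites. Cells of both genotypes received Cre by retrovirus and were collected 72 hrs later, so exposure to virus and Cre is shared by all groups. There were 2 lines, each a pair of littermates with a mother of its own, and 3 libraries were made for each genotype and line, 12 in all. Supplementary text of the study describes these MEFs as immortalized with SV40 and the triplicates as technical. The p-values therefore measure the spread between technical libraries rather than the spread between embryos. Each group came from a different embryo, and therefore embryo and genotype cannot be told apart within a line.

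Collagens are the main structural proteins of the extracellular matrix and are a defining product of fibroblasts. Each chain carries a repeat of glycine followed by 2 other residues (Gly-X-Y), and chains wind together into a triple helix. Fibrillar collagens keep this repeat in a long uninterrupted run and assemble into fibrils, whereas collagen IV chains have many interruptions and form the sheet-like network of basement membranes. Other collagens decorate fibrils, anchor them, form beaded filaments or short-chain networks, or stay in the cell membrane.

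The coding sequences show this difference between the classes. The pieces printed here are the 54 coding bases in the middle of the longest repeat run, 5′ to 3′ on the coding strand of GRCm38 (mm10), and are shown for Col1a1 as the most abundant member and for the 8 members on which the comparisons turn. Capitals mark the glycine codons, which open each triplet.
Col1a1: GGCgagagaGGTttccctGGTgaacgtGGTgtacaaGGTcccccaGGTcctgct
Col11a1: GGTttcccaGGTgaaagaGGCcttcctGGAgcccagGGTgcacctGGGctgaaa
Col4a1: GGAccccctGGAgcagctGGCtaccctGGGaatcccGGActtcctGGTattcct
Col4a2: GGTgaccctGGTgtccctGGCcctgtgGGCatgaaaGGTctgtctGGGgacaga
Col4a4: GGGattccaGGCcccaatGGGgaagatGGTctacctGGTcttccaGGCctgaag
Col8a1: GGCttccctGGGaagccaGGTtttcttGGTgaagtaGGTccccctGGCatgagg
Col7a1: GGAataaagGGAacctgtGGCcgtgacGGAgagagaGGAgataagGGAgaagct
Col16a1: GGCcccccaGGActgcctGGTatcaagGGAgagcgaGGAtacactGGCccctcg
Col18a1: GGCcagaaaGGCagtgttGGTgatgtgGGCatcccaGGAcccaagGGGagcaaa
These pieces lie in exons at chr11:94945500-94945553 (Col1a1, plus strand), chr3:114153153-114153658 (Col11a1, plus), chr8:11245791-11245937 (Col4a1, minus), chr8:11433680-11433733 (Col4a2, plus), chr1:82489701-82489754 (Col4a4, minus), chr16:57627787-57627840 (Col8a1, minus), chr9:108980216-108980533 (Col7a1, plus), chr4:130083708-130084303 (Col16a1, plus) and chr10:77074473-77077176 (Col18a1, minus). Where the interval is longer than 54 bases, the piece crosses an intron that is left out of the printed letters.

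Counting runs of at least 5 triplets, the longest run of a fibrillar gene held 216 to 344 triplets, and these genes had 2 or 3 runs each. The 6 collagen IV genes had 22 to 27 runs, the longest of 39 to 66 triplets, although their total of 425 to 444 triplets was above the 327 to 364 of the fibrillar genes. Among the 27 others the longest run was 23 to 113 triplets. Col12a1 had the smallest share of its codons in the repeat (8.1%), while Col7a1 held the largest total (471 triplets in 20 runs).

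**Figure D1:**
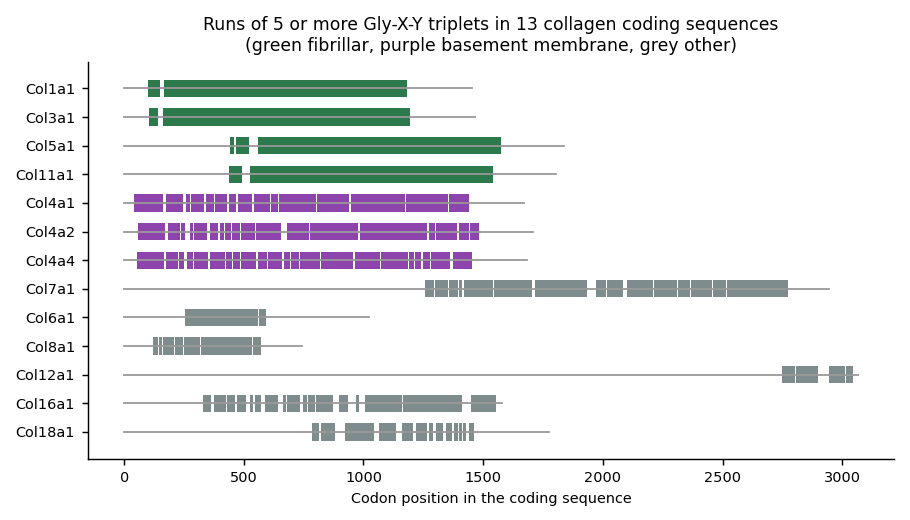
Position of Gly-X-Y runs (coloured blocks) along the coding sequence (grey line, codon number on the horizontal axis) of 13 collagen genes. Fibrillar genes (green) show 1 long block, collagen IV genes (purple) are broken into 22 to 27 blocks, and the other genes (grey) vary.

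Library totals ranged from 39360167 to 44695002 counts. Expression values are CPM, the count of a gene scaled to the TMM-normalized total of its library. Rtf2, the targeted gene, was at 44.8 to 47.2 CPM in WT line 1 and 5.44 to 6.29 CPM in RTF2-deficient line 1, and at 50.9 to 57.7 CPM against 6.33 to 6.66 CPM in line 2. The WT libraries of line 2 stood apart from the other 3 groups in sex-linked genes: Xist was at 0.0217 to 0.132 CPM there and at 103 CPM or more in every other library, and Ddx3y was at 91.8 to 107 CPM there and at most 0.195 CPM elsewhere. In line 2, sex-linked expression and genotype therefore cannot be told apart, while both genotypes of line 1 were alike in these genes. An interferon score was taken as the median log2(CPM + 1) of 12 interferon-stimulated genes. It was 5.15 to 9.21 in WT line 2, 2.55 to 7.50 in RTF2-deficient line 2 and 1.60 to 4.37 in line 1.

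The 10 fibroblast markers summed to 11500 to 15000 CPM in WT line 1, 12600 to 15100 CPM in RTF2-deficient line 1, 10600 to 11400 CPM in WT line 2 and 11400 to 14000 CPM in RTF2-deficient line 2. Most of this sum was Fn1 and Vim. Over both lines 2 of the 10 were lower in RTF2-deficient cells, namely Prrx1 (log2 fold change -0.47, edgeR adjusted p = 0.00151) and Twist1 (-0.27, adjusted p = 0.034), both transcription factors of mesenchyme, against 8.18% of all genes, and 0 were higher, against 4.98%. Of the 10, 8 were below 0. Pdgfra, a growth factor receptor of fibroblasts, was at -1.45 in line 2 (adjusted p = 0.0583). Dcn and Lum, 2 small proteoglycans of fibroblast matrix, were low, with group means of 0.9 to 1.24 CPM and 0.337 to 0.908 CPM.

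Some markers of other cell types were low. Under 1 CPM in every library were 3 of 5 epithelial markers (Epcam, Krt8 and Cldn6), 3 of 5 endothelial markers (Pecam1, Cdh5 and Tie1), 2 of 4 blood markers (Ptprc and Adgre1), 2 of 5 osteoblast markers (Bglap and Ibsp) and 3 of 4 skeletal muscle markers (Myog, Myf5 and Mymk). Of the rest, Krt18 was at 1.22 to 12.4 CPM, Kdr at 6.71 to 15.2 CPM, Tek at 2.84 to 12.5 CPM, Cd68 at 1.44 to 8.94 CPM and Runx2 at 37.6 to 65.5 CPM, while Cdh1, Csf1r, Sp7, Alpl and Myod1 reached at most 3.0, 1.83, 2.67, 2.08 and 2.91 CPM. Krt18 (log2 fold change 0.74, edgeR adjusted p = 0.0381) and Kdr (0.58, adjusted p = 0.0492) were higher in RTF2-deficient cells over both lines, and Cd68 was lower in line 2 (-1.07, adjusted p = 0.00809). The epithelial list summed to 2.06 to 4.27 CPM in line 1 and 6.75 to 13.1 CPM in line 2, the endothelial list to 10.7 to 21.6 CPM over all libraries and the blood list to 2.43 to 9.66 CPM. The part of these markers in the collagen results was not tested. The 5 smooth muscle markers, which cultured fibroblasts also express, summed to 4020 to 9760 CPM. In bulk RNA, fewer cells of a type and less RNA per cell cannot be told apart.

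Together the 44 collagen genes took 2.48% ± 0.439 of all counts (SD, n = 12 libraries), with a range of 1.89 to 3.29%. Fibrillar genes accounted for 1.38 to 2.61%, the others for 0.269 to 0.510% and collagen IV for 0.121 to 0.252%. Col1a1, the alpha 1 chain of type I collagen, alone held 26.9% of collagen counts and Col1a2, its partner, 20.3%. The 14 members with the most counts held 97.1%.

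Levels of different genes were compared per length, as CPM per kilobase of merged exons (RPKM). Col1a1 led with 1020 RPKM as a mean of the 12 libraries, followed by Col1a2 at 406 RPKM, Col5a2 at 276 RPKM and Col5a1 at 254 RPKM. With merged exons the ranges of Col5a2 and Col5a1 overlapped across libraries, so with this length their order is not set beyond the spread. With the longest transcript as the length, Col1a2 stood at 943 RPKM rather than 406 RPKM. This is because its annotated exons merge to 12426 bases against 5348 bases of the longest transcript. With that length Col5a1 was at 0.408 to 0.843 times Col5a2 over the libraries, and Col2a1 (275 RPKM) stood above Col5a1 (257 RPKM). In all, 1 member exceeded 1000 RPKM, 8 were between 100 and 1000, 11 between 10 and 100, 5 between 1 and 10, and 19 were below 1 RPKM.

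**Figure D2:**
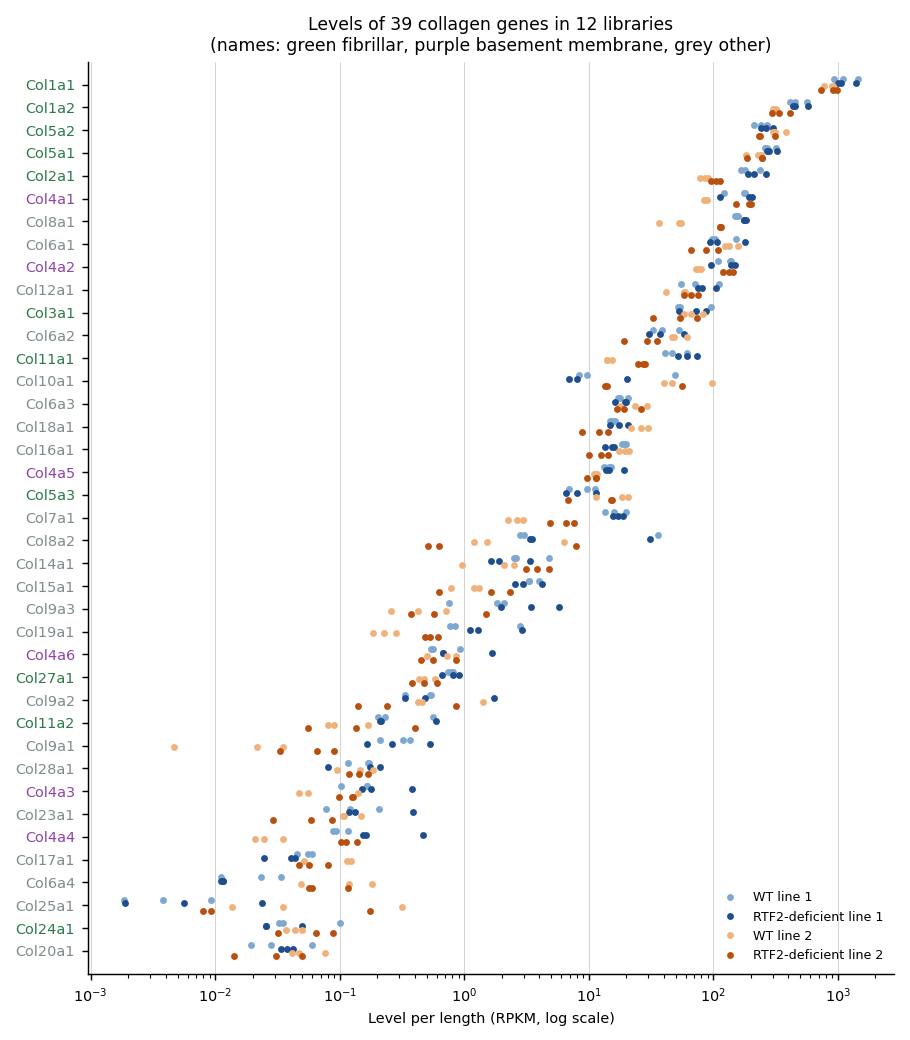
Level per length (RPKM, log scale) of the 39 tested collagen genes, 1 point per library, coloured by group and ordered by the mean. Col1a1 lies highest at a mean of 1020 RPKM, and for Col7a1, Col8a1, Col9a1 and Col11a1 the WT line 2 points lie below those of line 1.

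Col2a1, the chain of cartilage collagen II, was at 152 RPKM beside 150 RPKM for Col4a1, with 722 to 2440 CPM over the libraries. Its group mean was above that of Col4a1 in line 1 (195 against 160 RPKM in WT, 223 against 170 RPKM in RTF2-deficient cells) and below it in line 2 (84.9 against 86.4 and 104 against 182 RPKM). The ranges over libraries overlapped (78.1 to 264 RPKM for Col2a1 and 84 to 204 RPKM for Col4a1), and the order of these neighbours was not tested. These values use merged exons. With the longest transcript as the length, the means were 275 RPKM for Col2a1 and 169 RPKM for Col4a1. With that length Col2a1 was above Col4a1 in WT line 2 as well, but not in RTF2-deficient line 2. Of the 6 chondrocyte markers, Matn1 and Cnmd were under 1 CPM in every library, and the list summed to 69.3 to 154 CPM in WT line 1, 123 to 265 CPM in RTF2-deficient line 1, 51 to 68.9 CPM in WT line 2 and 57.8 to 75 CPM in RTF2-deficient line 2. Most of this sum was Acan and Sox9. Hapln1, a link protein of cartilage matrix, was at 0.0239 to 2.5 CPM, and in RTF2-deficient cells it was higher in line 1 (log2 fold change 3.11, adjusted p = 0.00286, on 1 to 4 counts per library in WT) and lower in line 2 (-1.60, adjusted p = 0.00663), with a difference between lines of -4.71 (adjusted p = 0.00206), by edgeR. Sox9, the transcription factor of cartilage, was lower in WT line 2 than in WT line 1 (-0.93, edgeR adjusted p = 0.0498), as were Col2a1 and Col11a1, whereas Hapln1 was higher there (4.96, edgeR adjusted p = 2.36e-05). The part of chondrocyte-like expression in the collagen levels was not tested. Col10a1, of hypertrophic cartilage, and Col11a1, of cartilage fibrils, were at 30.8 and 38.3 RPKM. Low levels were seen for Col4a3 and Col4a4, which form the mature glomerular basement membrane with Col4a5, at 0.145 and 0.126 RPKM, and for Col17a1, a transmembrane collagen of epidermal attachment, at 0.0618 RPKM.

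Members differed in how they encode glycine. The share of glycine codons of the repeat that end in T (GGT) was 53.8% for Col1a1 and 51.3% for Col1a2, and had a median of 23.3% over all 44 members. Across the 44 genes this share and the mean level had a Spearman rho of 0.538, with 0.8 across the 11 fibrillar genes, -0.2 across the 6 collagen IV genes and 0.444 across the 27 others. This is a description across genes that share libraries and gene duplications, and genes are not independent replicates.

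Averaged over both lines, 4 of the 39 tested collagen genes were called between RTF2-deficient and WT cells. At a Benjamini-Hochberg adjusted p under 0.05 over all 14263 genes tested (edgeR quasi-likelihood test), 1 member was lower, against 8.18% of all genes, and 3 were higher, against 4.98%. The higher ones were Col4a4, Col11a1 and Col8a1 and the lower one was Col16a1. With a log2 fold change beyond 1 added to the call, 1 member (Col4a4) was called, against 1.72% of all genes. The median log2 fold change of the 39 members was 0.02, beside 0.00 for all genes, and the median absolute change was 0.28 beside 0.15. Of the 39 members, 18 were below 0 and 21 above 0. Without RTF2-deficient line 1 replicate 1 the 4 calls became 7, with Col4a1, Col4a2 and Col7a1 added, and without the 3 libraries of highest interferon score 2 remained (Col4a4 and Col16a1). With the triplicates summed to 1 value per group, edgeR called 0 members and 0 of all genes, and 7 members had an unadjusted p under 0.05.

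Within line 1 no member was called by edgeR, against 2.52% of all genes lower and 0.680% higher, and 2 of the 39 had an unadjusted p under 0.05. DESeq2 called 1 member (Col4a4) and limma's voom none. In line 1, WT and RTF2-deficient libraries of the same number deviated together from their group means (correlations of 0.43 to 0.625 over genes). The labels give replicate numbers but no pairing, so pairing by number is a hint from the data. RTF2-deficient line 1 and WT line 2, of different lines, also correlated by number (0.287 to 0.309). With the replicate as a block in a fit of the line 1 libraries alone, an alternative added after seeing the data, 3 members were lower (Col10a1, Col14a1 and Col16a1), against 14.2% of all genes, and 7 were higher (Col2a1, Col4a4, Col4a6, Col5a2, Col8a1, Col9a3 and Col11a1), against 13.9%. Adjusted p ranged from 0.000119 for Col9a3 to 0.0313 for Col10a1 by edgeR.

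Within line 2, 2 members were lower (Col16a1 and Col18a1), against 7.03% of all genes, and 6 were higher (Col4a1, Col4a2, Col4a4, Col7a1, Col8a1 and Col11a1), against 5.42%. Among these 8, 5 had a log2 fold change beyond 1, against 3.78% of all genes: Col18a1, Col4a1, Col4a4, Col7a1 and Col8a1. The median absolute log2 change of the members was 0.66 in line 2, beside 0.20 for all genes, and 0.16 in line 1, beside 0.13. Without the 3 libraries of highest interferon score (WT line 2 replicates 1 and 3 and RTF2-deficient line 2 replicate 3), 1 WT library is left in line 2 and is assumed to vary like the other groups, so the calls of this fit compare that library and say little on stability. There 3 of the 8 calls were made (Col16a1, Col7a1 and Col8a1). The log2 fold changes of the lost calls were then 1.25 for Col4a1, 0.95 for Col4a2, 2.59 for Col4a4, 0.91 for Col11a1 and -0.90 for Col18a1, with larger standard errors than before. With the score as a term in the fit of all libraries, all 8 remained.

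For 3 members the effect of genotype was not the same in both lines. By the interaction test, Col18a1 was more negative in line 2, 1 member against 0.533% of all genes, and Col7a1 and Col8a1 were more positive, 2 members against 0.757%. These 3 calls were sensitive to single libraries: none remained by edgeR without WT line 1 replicate 2 or 3, RTF2-deficient line 1 replicate 2 or 3, or WT line 2 replicate 3 (7 to 10 members then had an unadjusted p under 0.05), 1 remained without WT line 1 replicate 1 (Col7a1), RTF2-deficient line 1 replicate 1 (Col18a1), WT line 2 replicate 1 (Col8a1), or RTF2-deficient line 2 replicate 1 or 2 (Col18a1), and 2 without WT line 2 replicate 2.

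**Figure D3:**
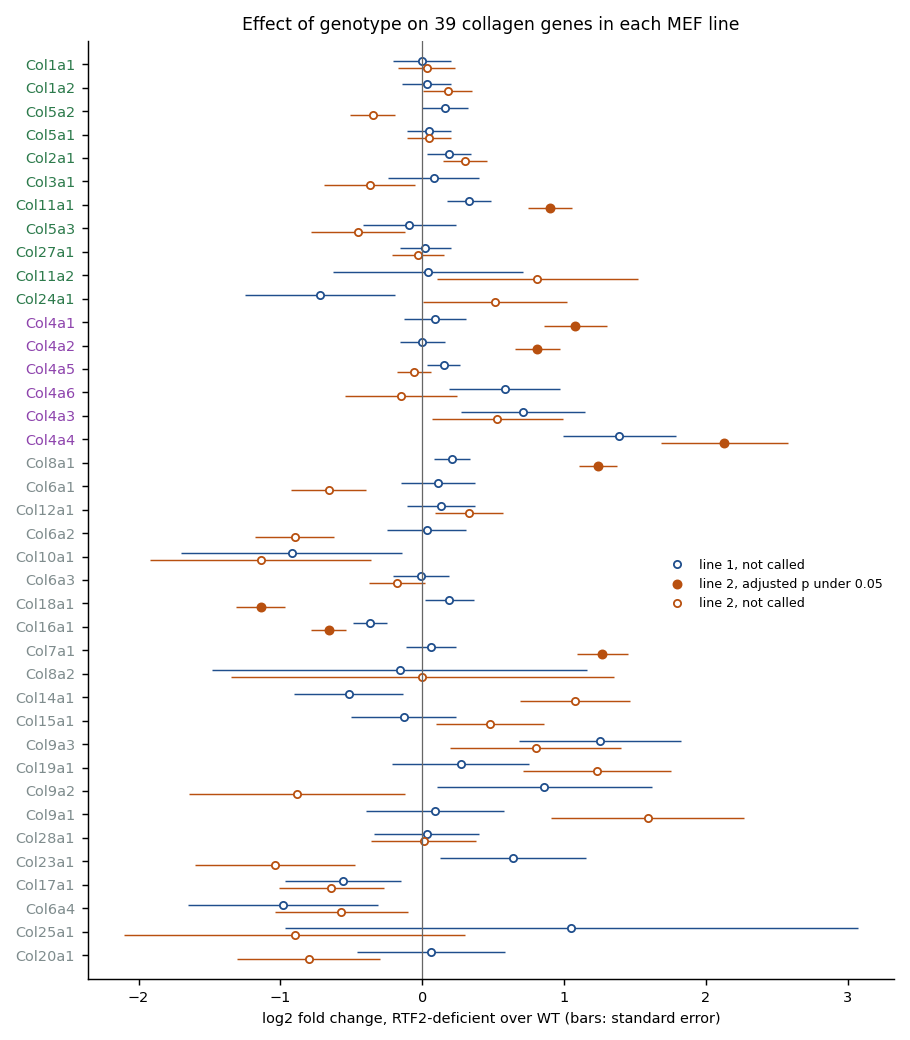
Log2 fold change of RTF2-deficient over WT cells (horizontal axis, bars are standard errors) for 39 collagen genes in line 1 (blue) and line 2 (orange), grouped by class. Filled points have an adjusted p under 0.05: 8 in line 2 and 0 in line 1.

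Among the fibrillar collagens, Col1a1 was at 9490, 7190 and 6100 CPM in WT line 1 and 9270, 6950 and 6570 CPM in RTF2-deficient line 1. In line 2 it was at 6010, 5110 and 5940 CPM in WT and 4850, 6030 and 6520 CPM in RTF2-deficient cells. The genotypes overlapped in both lines, and the log2 fold change over both lines was 0.01 (SE 0.138, edgeR adjusted p = 0.96).

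Col1a2 was at 7020, 5680 and 5090 CPM in WT and 7110, 5590 and 5470 CPM in RTF2-deficient line 1, and at 3930, 3720 and 3840 CPM in WT and 3680, 4220 and 5150 CPM in RTF2-deficient line 2. Its genotypes overlapped too, with a log2 fold change of 0.11 (SE 0.119, edgeR adjusted p = 0.59). Col5a2, a chain of collagen V that joins type I fibrils, was at 2600, 2300 and 2050 CPM in WT and 2900, 2530 and 2320 CPM in RTF2-deficient line 1, and at 3680, 3010 and 2870 CPM in WT and 2230, 2280 and 2980 CPM in RTF2-deficient line 2. Its log2 fold change over both lines was -0.10 (SE 0.131, edgeR adjusted p = 0.663), with 0.16 in line 1 and -0.35 in line 2, neither of which was called in the fit of all libraries. In the blocked fit of line 1, where each RTF2-deficient library was above the WT library of its number, it was called higher (0.16, SE 0.0336, edgeR adjusted p = 0.0089).

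Col11a1, a chain of collagen XI that sits inside cartilage fibrils, was the fibrillar gene that was called. It was at 781, 597 and 521 CPM in WT and 935, 788 and 658 CPM in RTF2-deficient line 1, where the groups overlapped. In line 2 it was at 177, 179 and 196 CPM in WT and 317, 350 and 362 CPM in RTF2-deficient cells, with no overlap. The log2 fold change was 0.61 over both lines (SE 0.135, adjusted p = 0.0113), 0.33 in line 1 (SE 0.155, adjusted p = 0.392, and 0.000503 with the block) and 0.90 in line 2 (SE 0.156, adjusted p = 0.0043), all by edgeR. Without the 3 libraries of highest interferon score the effect over both lines was 0.50 (adjusted p = 0.0995). Over the 11 fibrillar genes the median absolute log2 change over both lines was 0.11, beside 0.15 for all genes, and it was 0.08 beside 0.13 in line 1, 0.35 beside 0.20 in line 2 and 0.63 beside 0.18 between the WT lines.

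Among the basement membrane collagens, Col4a1 and Col4a2 encode the 2 chains of the common collagen IV trimer and are transcribed away from each other on chromosome 8, with first exons that overlap by 22 bases. Their levels overlapped in 3 of the 4 groups and were lower in WT line 2. Col4a1 was at 918, 1340 and 1320 CPM in WT and 844, 1520 and 1450 CPM in RTF2-deficient line 1, and at 640, 627 and 668 CPM in WT and 1440, 1510 and 1130 CPM in RTF2-deficient line 2. Col4a2 was at 721, 923 and 902 CPM and at 636, 991 and 916 CPM in line 1, and at 496, 483 and 529 CPM and 891, 960 and 792 CPM in line 2, in the same order of genotypes.

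In line 2 the genotypes did not overlap for either gene. The line 2 log2 fold change was 1.08 for Col4a1 (SE 0.22, adjusted p = 0.00956) and 0.81 for Col4a2 (SE 0.159, adjusted p = 0.00798), while line 1 gave 0.09 (SE 0.218) and 0.00 (SE 0.158), by edgeR. Over both lines Col4a1 gave 0.58 (adjusted p = 0.0886) and Col4a2 0.40 (adjusted p = 0.122), and edgeR called neither. DESeq2 called Col4a1 (adjusted p = 0.0231), and the mean of both lines in edgeR called both (adjusted p = 0.0277 and 0.0337). Without RTF2-deficient line 1 replicate 1 both passed, with edgeR adjusted p of 0.0124 and 0.0197. With the interferon score as a term, the effects over both lines were smaller and neither was called by edgeR. Col4a1 was then at 0.36 (adjusted p = 0.246) and Col4a2 at 0.25 (adjusted p = 0.315). The edgeR test of the difference between lines gave adjusted p of 0.243 and 0.154 and so did not pass, whereas DESeq2 called both genes there.

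The promoter windows of this pair, 250 bases before to 50 bases after each start in RefSeq's table for GRCm38.p6, are printed because these 2 genes moved together in line 2. Capitals mark matches to GGGCGG (a GC box) and CCAAT on either strand. The windows are at chr8:11312777-11313076 on the minus strand for Col4a1 and chr8:11312555-11312854 on the plus strand for Col4a2, and thus share 78 bases.
Col4a1: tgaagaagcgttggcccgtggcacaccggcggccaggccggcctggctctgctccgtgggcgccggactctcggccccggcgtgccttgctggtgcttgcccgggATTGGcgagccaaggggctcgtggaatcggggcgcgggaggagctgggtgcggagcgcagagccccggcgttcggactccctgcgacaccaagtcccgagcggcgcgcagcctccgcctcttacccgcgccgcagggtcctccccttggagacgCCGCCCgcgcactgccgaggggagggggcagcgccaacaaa
Col4a2: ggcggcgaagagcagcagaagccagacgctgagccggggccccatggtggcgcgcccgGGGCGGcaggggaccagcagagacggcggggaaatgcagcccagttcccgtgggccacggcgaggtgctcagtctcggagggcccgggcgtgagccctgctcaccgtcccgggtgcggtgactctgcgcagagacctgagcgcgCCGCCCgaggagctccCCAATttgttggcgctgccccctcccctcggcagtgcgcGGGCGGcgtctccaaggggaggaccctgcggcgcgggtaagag
The Col4a1 window held 1 GC box and 1 CCAAT match and the Col4a2 window 3 and 1. Among 32851 promoter windows of the same length, 35.7% held GGGCGG, 37.4% held CCAAT and 13.6% held TATAAA. Of the 38 windows of 35 collagen genes in the table, 23 held GGGCGG, 13 CCAAT and 5 TATAAA. A match is a run of letters and was not tested as a binding site.

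Col4a4, at chr1:82448423-82586849, had the largest log2 fold change of the called members in the comparison over both lines but few reads, with 10 to 207 counts per library. It was at 1.24, 0.941 and 0.989 CPM in WT and 4.94, 1.64 and 1.73 CPM in RTF2-deficient line 1, and at 0.369, 0.22 and 0.26 CPM in WT and 1.2, 1.46 and 1.08 CPM in RTF2-deficient line 2. RTF2-deficient cells were higher without overlap in each line. The log2 fold change was 1.72 over both lines (SE 0.307, adjusted p = 0.00334), 1.39 in line 1 (SE 0.4, adjusted p = 0.101, and 0.00713 with the block) and 2.13 in line 2 (SE 0.45, adjusted p = 0.011), by edgeR. Its start is 71 bases from that of Col4a3, head to head.

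Col4a5, on the X chromosome head to head with Col4a6, showed no such difference. It was at 101, 97.3 and 89 CPM in WT and 129, 97.1 and 92.3 CPM in RTF2-deficient line 1, and at 75.6, 74.1 and 78.9 CPM in WT and 76.6, 65.4 and 76.9 CPM in RTF2-deficient line 2. The genotypes overlapped in both lines, and the log2 fold change was 0.04 (SE 0.0864, edgeR adjusted p = 0.772). As a share of all counts, collagen IV genes took 0.121 to 0.132% in WT line 2 and 0.208 to 0.252% in RTF2-deficient line 2, against 0.177 to 0.230% and 0.159 to 0.252% in WT and RTF2-deficient line 1.

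Of the network and anchoring collagens, Col8a1 encodes a short-chain collagen of vessel walls and of Descemet's membrane in the eye. It was at 1230, 1180 and 1190 CPM in WT and 1370, 1430 and 1370 CPM in RTF2-deficient line 1, and at 286, 429 and 415 CPM in WT and 894, 880 and 900 CPM in RTF2-deficient line 2. RTF2-deficient cells were higher without overlap in both lines. The log2 fold change was 0.73 over both lines (SE 0.177, adjusted p = 0.0192), 0.21 in line 1 (SE 0.13, adjusted p = 0.56, and 0.00372 with the block) and 1.24 in line 2 (SE 0.132, adjusted p = 0.000291), and the difference between lines was 1.03 (SE 0.184, adjusted p = 0.0251), by edgeR. Without WT line 2 replicate 3 the call over both lines was lost (adjusted p = 0.0542). Without the 3 libraries of highest interferon score it was 0.46 (edgeR adjusted p = 0.0834).

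Col7a1 encodes the anchoring fibril that ties the epidermal basement membrane to the dermis and is made by fibroblasts as well as keratinocytes. It was at 139, 205 and 164 CPM in WT and 160, 195 and 177 CPM in RTF2-deficient line 1, and at 27.1, 23.2 and 30.4 CPM in WT and 67, 77.9 and 50.2 CPM in RTF2-deficient line 2. The genotypes overlapped in line 1 and were apart in line 2. Its log2 fold change was 0.06 in line 1 (SE 0.176, adjusted p = 0.933) and 1.27 in line 2 (SE 0.18, adjusted p = 0.00141), and the difference was 1.21 (SE 0.251, adjusted p = 0.0441), by edgeR. The call of the difference was lost by voom and with the replicate block. Over both lines it was 0.66 (adjusted p = 0.0666).

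Col16a1, a fibril-associated collagen at chr4:130047840-130099283, was the 1 member lower in RTF2-deficient cells over both lines. It was at 125, 129 and 135 CPM in WT and 103, 91.2 and 107 CPM in RTF2-deficient line 1, and at 133, 119 and 142 CPM in WT and 67.5, 84.7 and 96.4 CPM in RTF2-deficient line 2. Each of the 6 RTF2-deficient libraries was below each of the 6 WT libraries. The log2 fold change was -0.52 (SE 0.0923, adjusted p = 0.00339), with -0.37 in line 1 (adjusted p = 0.156, and 0.000573 with the block) and -0.66 in line 2 (adjusted p = 0.00534), by edgeR. The difference between the lines was -0.29 (adjusted p = 0.767), and the WT lines differed by 0.02 (adjusted p = 0.941).

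Col18a1, a proteoglycan of basement membranes whose end is cut off as endostatin, moved in line 2. It was at 103, 107 and 113 CPM in WT and 103, 122 and 145 CPM in RTF2-deficient line 1, and at 184, 153 and 208 CPM in WT and 62.5, 99.8 and 84.7 CPM in RTF2-deficient line 2. The genotypes overlapped in line 1, and RTF2-deficient cells were lower without overlap in line 2. The log2 fold change was 0.19 in line 1 (SE 0.173, adjusted p = 0.724) and -1.14 in line 2 (SE 0.175, adjusted p = 0.00221), with a difference of -1.33 (SE 0.245, adjusted p = 0.0281), by edgeR.

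Col6a1, a chain of the beaded filament collagen VI, was at 670, 427 and 448 CPM in WT and 789, 415 and 465 CPM in RTF2-deficient line 1, and at 589, 546 and 688 CPM in WT and 292, 385 and 477 CPM in RTF2-deficient line 2. It was lower without overlap in line 2 but was not called there (log2 fold change -0.66, edgeR adjusted p = 0.132). Col12a1, a fibril-associated collagen, was at 1680, 1090 and 841 CPM in WT and 1590, 1230 and 1140 CPM in RTF2-deficient line 1, and at 879, 640 and 902 CPM in WT and 886, 1150 and 1000 CPM in RTF2-deficient line 2. The genotypes overlapped in each line, with a log2 fold change of 0.23 (SE 0.165, edgeR adjusted p = 0.384).

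**Figure D4:**
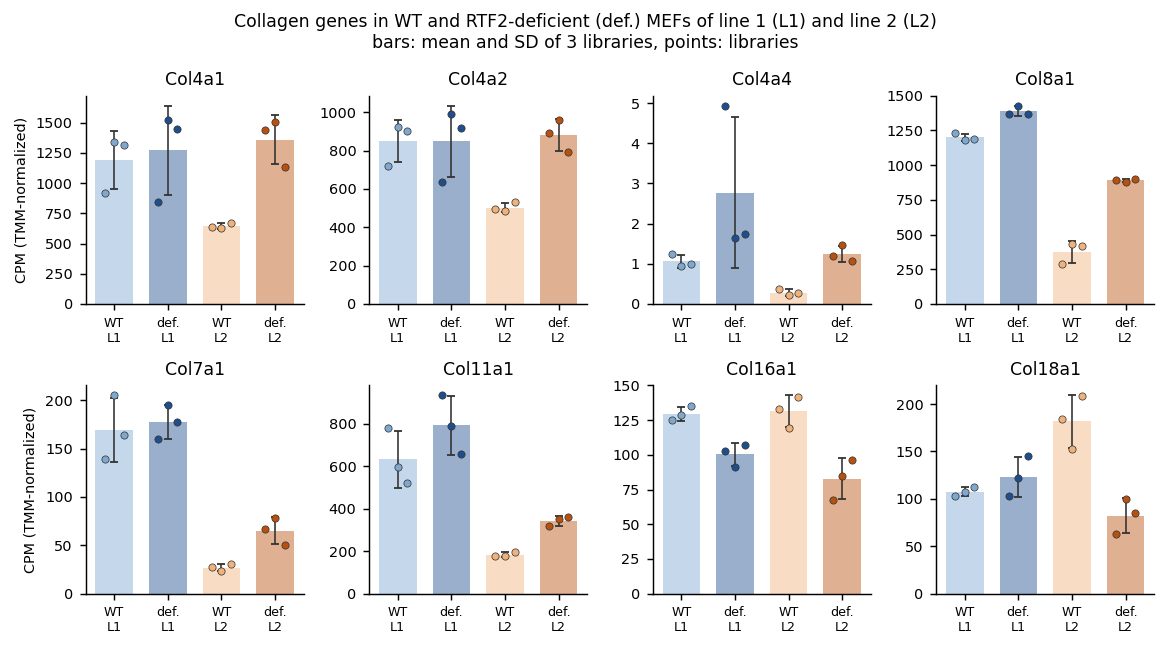
TMM-normalized CPM of 8 collagen genes in each library (points) with the mean and SD of 3 libraries (bars), for WT and RTF2-deficient (def.) cells of line 1 (L1) and line 2 (L2). For Col4a1, Col4a2, Col7a1, Col8a1 and Col11a1 WT line 2 is the lowest group, and for Col16a1 both RTF2-deficient groups are below both WT groups.

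Some members varied more between libraries of 1 group than between genotypes. Col10a1, the collagen of hypertrophic cartilage, was at 154, 30.4 and 26 CPM in WT line 1 and at 303, 146 and 126 CPM in WT line 2, and Col8a2, the partner chain of Col8a1, was at 162, 13.5 and 12.6 CPM in WT line 1 and at 28.4, 5.42 and 6.89 CPM in WT line 2. In both genes and both groups replicate 1 was the highest. RTF2-deficient line 1 was likewise highest in replicate 1, at 63.6 CPM for Col10a1 and 138 CPM for Col8a2, whereas RTF2-deficient line 2 was highest in replicate 3, at 175 and 35.6 CPM. In each of the 4 groups this was also the library with the highest interferon score (4.37, 9.21, 2.61 and 7.50 in the order given), and the part of that state in these levels was not tested.

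More collagen genes were called between the 2 WT lines than between the genotypes over both lines. The WT lines came from different embryos and differed in sex-linked expression. Line, embryo and sex-linked expression therefore cannot be told apart between them. In WT line 2, 12 members were lower than in WT line 1, against 7.31% of all genes, and 2 were higher (Col6a4 and Col18a1), against 6.70%. With a log2 fold change beyond 1, 9 were called, against 6.76%. The median log2 fold change of the members was -0.37 beside 0.02 for all genes. The lower ones included Col9a1 (-3.83), Col7a1 (-2.66), Col4a4 (-1.89), Col11a1 (-1.78), Col8a1 (-1.67), Col2a1 (-1.20) and Col1a2 (-0.63), with edgeR adjusted p between 1.03e-05 for Col7a1 and 0.035 for Col1a2. Counts fell to 9 calls without WT line 1 replicate 2 or WT line 2 replicate 3, and to 5 without the 3 libraries of highest interferon score, which leaves 1 library of WT line 2. Of the 9 lost calls, 6 had a log2 fold change at least as large in size as before, from -0.69 for Col1a2 (-0.63 before) to -2.72 for Col19a1 (-2.66 before), with larger standard errors. The other 3 were nearer 0, at -3.10 for Col9a1, 1.08 for Col6a4 (2.34 before) and 0.48 for Col18a1 (0.75 before). With the interferon score as a term 10 of the 14 calls remained and 6 were added, and Col4a1, Col4a2, Col6a4 and Col18a1 were lost, which include both higher members. Col9a1 rests on 1 to 8 counts per library in WT line 2.

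Cell type markers were also called between the WT lines. Of the 10 fibroblast markers, Pdgfrb (-0.94, adjusted p = 0.00376) and Thy1 (-0.62, adjusted p = 0.0183) were lower in WT line 2, and Prrx1 (0.60, adjusted p = 0.00422) and Twist1 (0.29, adjusted p = 0.0154) were higher, by edgeR. Of the 4 epithelial markers tested, Krt18 (1.94, adjusted p = 0.00213) and Krt8 (adjusted p = 0.0333, with 0 to 1 count per library in WT line 1 and 7 to 12 in WT line 2) were higher. Cd68, of macrophages, was higher (2.01, adjusted p = 0.000159), and Myod1, of skeletal muscle, was lower (adjusted p = 0.0131, with 8 to 122 counts per library in WT line 1 and 0 to 1 in WT line 2). Of the 2 endothelial, 3 osteoblast and 5 smooth muscle markers tested, edgeR called 0, with an unadjusted p under 0.05 for 2 of the smooth muscle markers. These counts stand against 7.31% of all genes lower and 6.70% higher. The part of these markers in the collagen difference was not tested.

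Same-numbered libraries of the 2 WT lines also deviated together (correlations of 0.305 to 0.426). With the replicate as a block in a fit of the WT libraries alone, added after seeing the data, 16 members were lower in WT line 2, against 8.86% of all genes, and 6 were higher, against 8.72%, and these 22 include all 14 of the calls above. With the block in the fit of all 12 libraries there were 13 calls, and Col1a2 and Col27a1 were not among them.

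This comparison shares the WT line 2 libraries with the comparison of genotypes in line 2, so the values stand side by side only. For Col7a1 the log2 fold change was -2.66 for WT line 2 over WT line 1 and 1.27 for RTF2-deficient over WT cells of line 2. For Col8a1 the values were -1.67 and 1.24, for Col11a1 -1.78 and 0.90, for Col4a4 -1.89 and 2.13, for Col4a1 -0.89 and 1.08, for Col4a2 -0.76 and 0.81, for Col18a1 0.75 and -1.14, and for Col16a1 0.02 and -0.66. All 8 members called in line 2 are in this list, and Col16a1 is the one for which the WT lines were not called different.

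Chains of 1 collagen molecule were compared within each library, where the ratio does not depend on scaling, with the longest transcript as the length. Col1a1 stood at 1.08 to 1.40 times Col1a2 over the 12 libraries, and the ratio was 2.27 to 2.93 with merged exons. Col4a1 stood at 1.23 to 1.58 times Col4a2, with 1.23 to 1.26 in WT line 2 and 1.39 to 1.58 in RTF2-deficient line 2. Col5a1 was at 0.783 to 0.843 times Col5a2 in WT line 1 and 0.710 to 0.806 in RTF2-deficient line 1. In line 2 it was at 0.408 to 0.528 in WT and 0.552 to 0.723 in RTF2-deficient cells. Both line 2 ranges lay below that of WT line 1, but the RTF2-deficient ranges of the lines overlapped. Col6a1 was at 1.62 to 2.21 times Col6a2. Col6a3 varied more, at 0.12 to 0.331 times Col6a1. This ratio was 0.151 to 0.205 in WT and 0.12 to 0.208 in RTF2-deficient line 1. In line 2 it was 0.158 to 0.209 in WT and 0.195 to 0.331 in RTF2-deficient cells. These ratios are descriptions without a test.

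Genes that modify, export, cleave, crosslink and bind collagen were examined as a list of 43, of which 40 were tested. Over both lines 5 were lower in RTF2-deficient cells, against the 8.18% of all genes, and 2 were higher, against 4.98%, and the median log2 fold change was 0.01. In line 1 the counts were 1 lower, against 2.52% of all genes, and 1 higher, against 0.680%. In line 2 they were 2 lower, against 7.03%, and 6 higher, against 5.42%. In WT line 2 against WT line 1, 18 were lower, against 7.31% of all genes, and 0 higher, against 6.70%, by edgeR, where 25 of the 40 had an unadjusted p under 0.05.

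Both higher genes encode proteases that remove the C-terminal propeptide of fibrillar collagens. Bmp1 was at 229, 254 and 220 CPM in WT and 299, 343 and 315 CPM in RTF2-deficient line 1, and at 123, 139 and 130 CPM in WT and 256, 256 and 264 CPM in RTF2-deficient line 2. Each RTF2-deficient library was above each WT library, and the log2 fold change was 0.72 (SE 0.0956, edgeR adjusted p = 0.000496), with 0.45 in line 1 and 0.99 in line 2, both called. Tll1 was at 187 to 218 CPM and 212 to 252 CPM in WT and RTF2-deficient line 1 and at 78.2 to 120 CPM and 179 to 212 CPM in line 2, with a log2 fold change of 0.59 (adjusted p = 0.0248). Pcolce, which enhances this cleavage, was instead lower, with a log2 fold change of -0.45 (edgeR adjusted p = 0.00526). It was at 374 to 452 CPM in WT and 271 to 335 CPM in RTF2-deficient line 1. In line 2 it was at 347 to 454 CPM and 263 to 322 CPM. Within line 1 neither Tll1 (0.19, adjusted p = 0.642) nor Pcolce (-0.45, adjusted p = 0.0894) was called by edgeR.

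The other 4 lower genes were an uptake receptor and 3 modifying enzymes. Mrc2 (Endo180), which takes up collagen for degradation, had a log2 fold change of -0.36 (edgeR adjusted p = 0.00714), with 249 to 294 CPM in WT and 180 to 207 CPM in RTF2-deficient line 1, and 178 to 188 CPM and 146 to 176 CPM in line 2. P3h3, of the prolyl 3-hydroxylase family, had -0.44 (adjusted p = 0.0189), P4hb, the disulfide isomerase subunit of prolyl 4-hydroxylase, -0.24 (adjusted p = 0.0242), and Colgalt1, which adds galactose to hydroxylysine, -0.17 (adjusted p = 0.0358). P4hb was lower without overlap in both lines. In line 1 it was at 1390 to 1480 CPM in WT and 1220 to 1250 CPM in RTF2-deficient cells. In line 2 it was at 1270 to 1510 CPM in WT and 1110 to 1230 CPM in RTF2-deficient cells. P4hb was not called within line 1 (edgeR adjusted p = 0.309). Mrc2 was called within line 1 (edgeR adjusted p = 0.0131) but not within line 2.

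For 3 genes of this list the interaction test was passed with a more positive effect in line 2, against 0.757% of all genes, and for 0 with a more negative one, against 0.533%. They were Loxl2, a lysyl oxidase that acts on collagen IV (difference 1.39, edgeR adjusted p = 0.0251), Plod2, a lysyl hydroxylase (0.96, adjusted p = 0.0413), and Bmp1 (0.54, adjusted p = 0.0431). Loxl2 was at 716, 943 and 887 CPM in WT and 657, 1040 and 990 CPM in RTF2-deficient line 1, and at 249, 310 and 304 CPM in WT and 787, 878 and 714 CPM in RTF2-deficient line 2. Like Col4a1 and Col4a2, it was lowest in WT line 2 and overlapped between the genotypes of line 1. The collagen calls of the interaction test were sensitive to single libraries, and such a check is not given for these 3 genes.

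**Figure D5:**
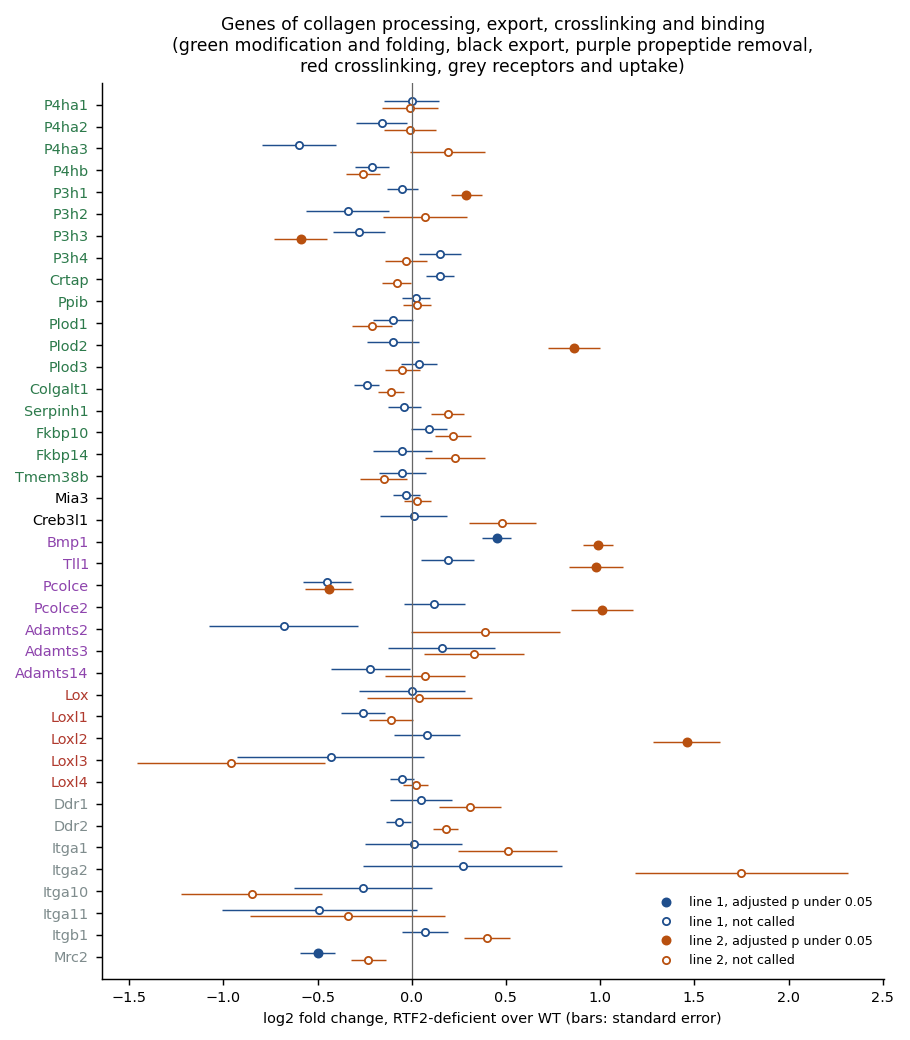
Log2 fold change of RTF2-deficient over WT cells (horizontal axis, bars are standard errors) for 40 genes of collagen modification, export, propeptide removal, crosslinking and binding in line 1 (blue) and line 2 (orange). Filled points have an adjusted p under 0.05, and Bmp1 is filled in both lines.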

How the data were processed

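Total RNA was extracted 72 hrs after Cre and sequenced as 3 libraries for each genotype in each of the 2 lines. The values deposited by the authors are read counts for each Entrez Gene number without normalization. The methods name Salmon, tximport and DESeq2 with mm10 gene models, while HTSeq is named beside mm10 in the submitters' processing notes; which tool made the table is not settled, and use of strand is not given in the sources used here. Reads of overlapping antisense genes therefore cannot be told apart from those of a member (12 pairs on opposite strands, sharing 14 to 563 exonic bases).

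RefSeq held a symbol for 24045 of the 24100 identifiers, and exons and coding sequences came from GENCODE M21 (GRCm38). Genes passing filterByExpr were normalized by TMM and tested with edgeR 4.0.16 (glmQLFit and glmQLFTest, R 4.3.3), with terms for line and genotype over both lines and a layout of the 4 groups for effects within lines, their difference and the difference of the WT lines. Adjusted p is Benjamini-Hochberg over 14263 genes, and standard errors were derived from the coefficient and its F statistic. Library totals of 39360167 to 44695002 put a count of 0 at no more than 3 counts, or 0.0762 CPM in the shallowest library, for counting error only. Libraries of 1 group differed by far more than sampling noise (chi-square per degree of freedom of 21.1 to 189.5).

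Same-numbered libraries deviated together between the genotypes of line 1 (correlations of deviations of 0.43 to 0.625) and between the WT lines (0.305 to 0.426). They did not between the genotypes of line 2 (-0.587 to 0.17). Pairing by number is a hint from the data and is not given by the labels. Blocked fits were added for the line 1 libraries alone and for the WT libraries alone. Values of every library are given for members called over both lines, members whose effect differed between lines and the 3 members of each class with the highest level per length, and at most 8 genes of the pathway list are named for the lowest adjusted p; other genes named were chosen after their values were seen. Members, classes, pathway lists and cell type markers were chosen with earlier results of these data known. One of the marker lists is not reported here. Alternatives were RLE and upper-quartile normalization, other filters, DESeq2 1.42.0, voom (limma 3.58.1), a replicate block, other model terms, summed triplicates and each library left out, and, added later, an interferon score as a term, its 3 highest libraries left out and each line and the WT libraries alone.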

Additional observations from a re-analysis of the deposited data

Results flagged for a closer look

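For 3 collagen genes the effect of genotype differed between the 2 MEF lines by the edgeR interaction test, given as the log2 fold change of line 2 minus that of line 1. The difference was 1.03 for Col8a1 (adjusted p = 0.0251), 1.21 for Col7a1 (adjusted p = 0.0441) and -1.33 for Col18a1 (adjusted p = 0.0281). WT line 2 was the lowest of the 4 groups for Col7a1 and Col8a1 and the highest for Col18a1. It was also the group with male sex-linked expression and with interferon scores of 5.15 to 9.21. With the interferon score as a term in the fit, all 3 calls were kept, at 0.98 for Col8a1 (adjusted p = 0.0131), 1.04 for Col7a1 (adjusted p = 0.0406) and -1.28 for Col18a1 (adjusted p = 0.025). Without the 3 libraries of highest score, which leaves 1 WT library in line 2, 1 call was left (Col8a1, 0.85), while the difference was 1.59 for Col7a1 (SE 0.267, adjusted p = 0.0589) and -1.10 for Col18a1 (SE 0.31, adjusted p = 0.238), by edgeR. The 3 calls were also sensitive to single libraries: none remained without WT line 1 replicate 2, for example. Voom and the replicate block each ended the call of Col7a1. Sex-linked expression and genotype cannot be told apart in line 2.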

How the results depend on the processing

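Of the collagen calls over both lines (4), all 4 were kept by voom, by either other normalization (RLE, upper quartile), without a filter and with 1 CPM required in 6 libraries, and the replicate block gave 5. DESeq2 gave 7, the mean of both lines 8, genotype without the line term 1, summed triplicates 0 and removal of the 3 libraries of highest interferon score 2; leaving out 1 library gave 3 to 7. In line 1 (0 calls by edgeR), DESeq2 gave 1 (Col4a4), the interferon term 1 (Col9a3) and line 1 alone with the replicate block 10, and leaving out 1 library gave 0 throughout. In line 2 (8 calls), removal of the 3 libraries of highest interferon score gave 3, and leaving out 1 library gave 8 to 9. For the difference between lines (3 calls), DESeq2 gave 5, removal of the 3 libraries gave 1, the replicate block 2, and leaving out 1 library 0 to 3. For the WT lines (14 calls), the WT libraries alone with the replicate block gave 22, removal of the 3 libraries 5 and leaving out 1 library 9 to 16. Removal of the 3 libraries leaves 1 library in WT line 2, so a lost call does not by itself show a smaller effect. Effects of lost calls moved both ways. The difference between lines was 1.59 for Col7a1, against 1.21 with all libraries, and -1.10 for Col18a1, against -1.33. Over both lines Col8a1 was at 0.46, against 0.73, and Col11a1 at 0.50, against 0.61. Except for settings that drop libraries or sum them, which have fewer samples, the cause was not tested.

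Of the named members, 3 changed sign over both lines, each with a value near 0 and not called. Col1a1 ranged from -0.0551 to 0.11 and Col4a5 from -0.0368 to 0.0897 on the log2 scale when 1 library was left out, and Col5a2 was at 0.0727 with the interferon term. In all, 309 values of single genes under the alternatives kept their direction and side of the threshold, 10 gained a call, 10 lost one and 7 changed sign. In the fit of all 12 libraries, the replicate block ended the interaction call of Col7a1 and, between the WT lines, the calls of Col1a2 and Col27a1, and added Col9a3 over both lines and between the WT lines. Voom ended the interaction call of Col7a1 and the call of Col4a4 between the WT lines. Depth limits Col4a4, with 10 to 207 counts per library, Col9a1, with 1 to 8 counts per library in WT line 2, and the 5 untested members.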
